A study of Mus musculus with 26 samples.

Results

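The 200 most abundant long noncoding RNA (lncRNA) genes of the adult mouse testis were followed in 2 knock-in lines. They were chosen on the wild-type (WT) libraries only, as the genes annotated as lncRNA with the highest mean normalized read count in N1 and N2, out of 9782 lncRNA genes and 51124 genes in all. Of the lncRNA genes, 6958 were above 0 in a WT library. The last members inside the limit were 1700003I22Rik, with a WT mean of 1198, and Gm20163, with 1187. Just outside were Gm11981, with 1186, and Gm20268, with 1182. The values are not divided by length, so a long transcript enters the list at a lower concentration than a short one.

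Total RNA of whole testes was depleted of ribosomal RNA and sequenced in 6 libraries, each from another adult mouse. N1 and N2 are WT. N3 and N4 are 10xPerf, which carries 10 tandem sites complementary to the pachytene piRNA piR-A in the last exon of Ythdc2, a germline RNA helicase gene. N5 and N6 are 10xBulge, in which the same 10 sites are mismatched to the piRNA at its cleavage position. Both lines were made from single-cell embryos of the B6D2F1/J hybrid, and the strain of the WT mice is not given in the sources used here. The study kept its lines by crossing homozygotes, and the labels give genotype without zygosity. One knock-in line stands for each design, so a difference between lines cannot be told apart from any other difference between the 2 colonies. With 2 mice per genotype, the smallest two-sided p of an exact permutation test is 0.333, and all adjusted p-values below come from limma fits over all genes tested, with 0.1 as the threshold.

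The testis transcribes more lncRNA genes than most organs, and many are switched on in spermatocytes and spermatids, in which chromatin is opened widely before the genome is compacted with protamines. Many of these RNAs are read from the strand opposite to a coding gene or start back to back with one. Others, such as Malat1 and Neat1 of nuclear bodies, Norad, which binds Pumilio proteins, and Rmrp, the RNA of the ribonuclease MRP complex, are made in nearly all cell types.

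By name, the 200 are 86 Gm gene models, 78 RIKEN clones with a prefix of testis libraries, 12 other RIKEN clones, 12 genes named as opposite-strand transcripts, 11 genes with other symbols and 1 without a symbol. All 200 were found in GENCODE vM21 (build GRCm38), which places 89 between genes, 74 antisense to a gene and 12 at a bidirectional promoter. It lists 13 as processed transcripts, 9 as coding in that older release, 2 as sense intronic and 1 as sense overlapping. Chromosome 7 holds the largest number, with 17, and 3 are on X and 2 on Y. The members took between 1.45% and 1.63% of the summed normalized counts in the WT and 10xPerf libraries, 0.992% in N5 and 1.52% in N6. Their median level was 2236 and 2010 in WT, 1923 and 1852 in 10xPerf, and 745 and 713 in 10xBulge. A floor of 3 reads was worth 2.73 to 3.63 normalized counts at roughly 41.1 to 61.6 M reads per library, and covers counting error only.

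Promoter sequence was compared because several regulators of spermatogenesis bind short motifs. CREM, the activator of spermatid genes, binds the cAMP response element, TGACGTCA, or its shorter site TGACG, which the full element contains. RFX factors of ciliogenesis bind GTTGCC, and MYB factors, among them the meiotic MYBL1, bind CAACTG. Promoters of 300 bases from RefSeq (GRCm38.p6, 250 before and 50 after the start) were matched to 98 members whose start lay within 500 bases of the GENCODE start. They comprise 51 of the members that were lower in 10xBulge than in 10xPerf by the test below and 47 that were not past the threshold. On either strand, the shorter site was in 23.5% of the former, 12.8% of the latter and 21.02% of 27025 promoters of all genes in the table. The full element was in 3 of 51, 0 of 47 and 1.88% of all promoters. GTTGCC was in 13.7%, 8.51% and 12.7%, and CAACTG in 19.6%, 29.8% and 13.6%. The median number of CpG dinucleotides was 5 in the lower members and 9 in the others, at a GC content of 52.3% and 52%. A match is a description of letters and no evidence of binding, and the shares were not tested. Shown first are the 3 members with the full element, all of them lower in 10xBulge, and the most abundant lower member with the shorter site. Of the 3, 1810044D09Rik lost this call without N4 or without N6 (adjusted p up to 0.201). They are followed by the 3 most abundant members with a MYB motif, none of which passed the threshold. Windows of 30 bases are in the orientation of transcription, and only the motif for which a member is shown is in capitals. The window of the lower member Gm15756 also holds a MYB motif, cagttg, left in small letters.
Gm15756, chr6:90599990-90600019, minus strand: cacatcagttgTGACGTCAtaggtggtagg
C030037D09Rik, chr11:88718428-88718457, plus strand: aaccaatgcggTGACGTCAcgcaccccgtt
1810044D09Rik, chr6:91440928-91440957, plus strand: gcgcggttacaTGACGTCAtcctgaggcgc
AI507597, chr4:141614341-141614370, plus strand: aagtgggtctgcTGACGctgtccatctcca
Rbakdn, chr5:143165727-143165756, minus strand: gttccagagccaCAACTGacctgcacctga
1700001L05Rik, chr15:83367261-83367290, minus strand: gcgcgcccacggCAGTTGgtctctgaggcg
1700008K24Rik, chr17:49113506-49113535, minus strand: gccagatgagagCAGTTGgcagttattttg

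The comparison of 10xBulge with 10xPerf was the one tested for these genes, since its fitted difference uses no WT value. The WT libraries that chose the members do enter the estimate of the spread, and with only these 2 genotypes in the fit 103 members were lower. All 200 passed the filter of at least 10 in at least 2 libraries. In 10xBulge 102 members (51%) were lower than in 10xPerf, 1 was higher and 97 did not pass the threshold, whereas among all 23782 genes tested 24.1% were lower and 12.9% were higher. The median log2 difference was -1.14 over the members and -0.067 over all genes tested. It was negative for 168 members and positive for 32, and standard errors ran from 0.37 to 1.07 with a median of 0.43. A decrease beyond 2 on the log2 scale was found for 66 members and one beyond 5 for 44. Over all 23782 genes tested, 4507 (19%) had a decrease beyond 2. Decreases beyond 5 were also found among the other lncRNA genes, down to the range from -9.5 to -9 with 6 genes. Such decreases are thus not particular to the members. Of the 4220 other lncRNA genes tested, 44.8% were lower and 2.63% higher, with a median of -1.17. Of 17550 coding genes, 18.1% were lower and 16.2% higher, with a median of 0.17. With library totals in place of the deposited scaling, the split over all genes was 5160 lower and 5122 higher in place of 5729 and 3077, and 98 members were lower and 2 higher. In whole testis, fewer cells of a type and less RNA per cell cannot be told apart.

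Markers of testis cell types moved in the same comparison. Of 20 spermatid markers 19 were lower in 10xBulge, with a median log2 difference of -6.68, and their summed level was 863013 to 1071360 in WT, 1016050 to 1130730 in 10xPerf and 77449 to 106424 in 10xBulge. Of 18 spermatocyte markers 0 passed the threshold in limma (1 higher at an unadjusted p under 0.05), and their sums were 55641 to 79191, 71242 to 83492 and 67257 to 69547. Higher were 6 of 12 spermatogonial, 8 of 10 Sertoli cell, 7 of 8 Leydig cell, 5 of 6 macrophage and 1 of 6 peritubular and vessel markers. Sertoli cell markers summed to 60643 to 86031 in WT and 10xPerf together and to 133114 and 282491 in N6 and N5, and Leydig cell markers to 46943 to 83129 and to 150962 and 319236. No marker of these types was at 0 in any library. Epididymis markers summed to at most 37.9 in a library. The part of this shift in the values of the lncRNAs was not tested.

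**Figure D1:**
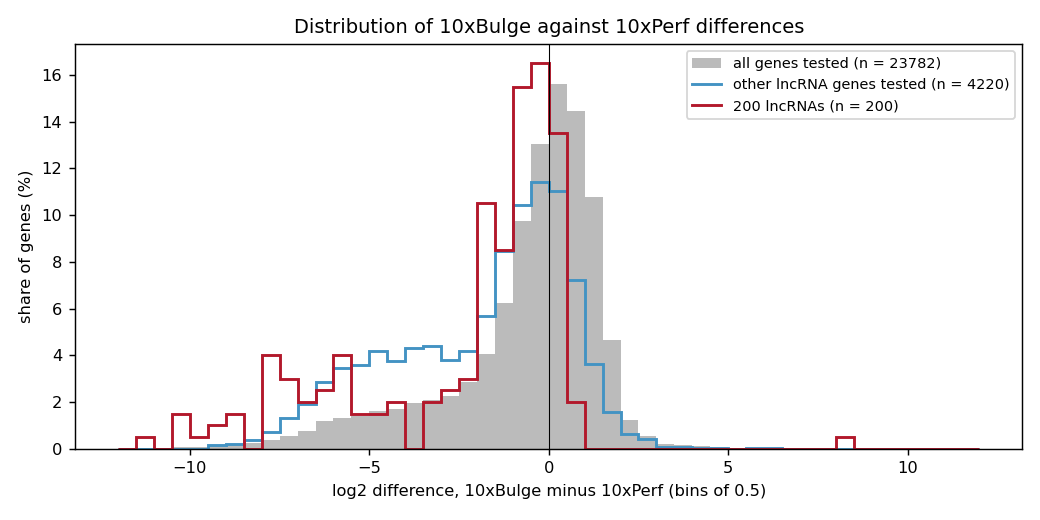
Share of genes (%, y axis) by log2 difference of 10xBulge minus 10xPerf (x axis, bins of 0.5) for the 200 lncRNAs (red line), 4220 other lncRNA genes tested (blue line) and all 23782 genes tested (grey). Most members lie between -2 and 1, 44 lie below -5, and 1 lies at 8.12.

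The differences spread from -11.18 upward, and the fullest range of 0.5 was that from -0.5 to 0, with 33 members. From the ratio of means to WT, as a description, 54 members were under 1/10 of WT in 10xBulge, 29 of them under 1/100. A further 69 were between 1/10 and 1/2, 75 between 1/2 and 2, and 2 were over 2-fold, Malat1 and Norad. In 10xPerf the same classes held 1, 11, 186 and 2 members. The median ratio to WT was 35.4% in 10xBulge and 82.8% in 10xPerf. All 54 members of the lowest class, 46 of the next and 2 of the third were among those lower in 10xBulge than in 10xPerf.

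**Figure D2:**
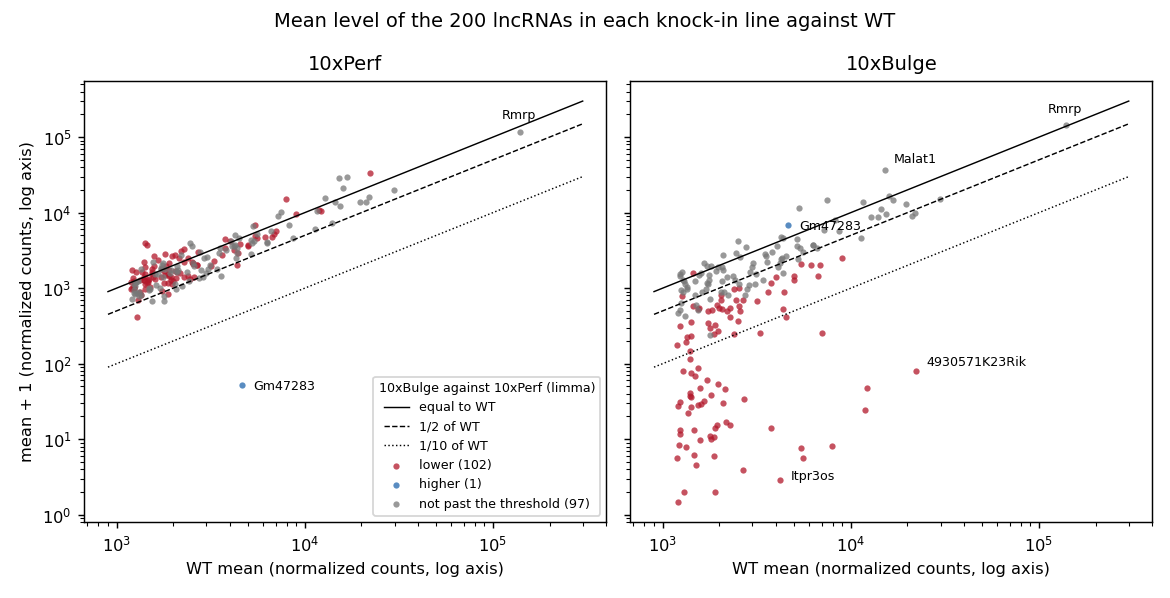
Mean normalized count plus 1 of the 200 lncRNAs in 10xPerf (left) and 10xBulge (right) against the WT mean, on log axes, with lines for equal, 1/2 and 1/10 of WT. Points are coloured by the limma call of 10xBulge against 10xPerf. In 10xPerf all but Gm47283 lie above the line of 1/10, and in 10xBulge 54 lie below it.

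Among name groups, 50 of 78 RIKEN testis clones were lower in 10xBulge than in 10xPerf (median log2 difference -1.74), as were 33 of 86 Gm models (-0.76), 9 of 12 other RIKEN clones (-1.37), 7 of 12 opposite-strand genes (-1.47) and 3 of 11 genes with other symbols (-0.37). Of antisense members 50 of 74 were lower (-1.72), of those between genes 31 of 89 (-0.65) and of those at bidirectional promoters 6 of 12 (-1.19). The number rose with the rank, from 17 of ranks 1 to 50 to 23, 30 and 32 in the next groups of 50, with medians of -0.69, -0.98, -1.53 and -2.17. Lower members had a median transcript length of 1104 bases and a median WT level of 1897, against 2287 bases and 2791 for those not past the threshold. These groups overlap in name, position, level and length, and no difference between them was tested.

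The 10 lower members with the smallest p and no overlap between lines were led by Itpr3os, an RNA on the strand opposite to the inositol trisphosphate receptor gene Itpr3 (chr17:27099658-27101440 on GRCm38, 2 exons). Itpr3os had 4547 and 3901 normalized counts in WT, 3345 and 3065 in 10xPerf, and 2.75 and 0.98 in 10xBulge, a log2 difference of -10.20 ± 0.44 (SE, adjusted p = 3.32e-06). Both 10xBulge libraries were thus at a few reads, while the other 4 libraries were between 3065 and 4547. 1700027A15Rik, antisense to the transition protein gene Tnp1, had 6087 and 9722 in WT, 12206 and 18282 in 10xPerf, and 11.8 and 2.24 in 10xBulge. The fitted difference was -11.18 ± 0.63 (adjusted p = 4.68e-06), and both 10xPerf libraries were above both WT libraries. 4930571K23Rik, the most abundant lower lncRNA of WT testis (chr7:125368861-125371013, 1 exon), had 16527 and 27833 in WT, 30939 and 35296 in 10xPerf, and 103 and 53.999 in 10xBulge. The difference of 4930571K23Rik was -8.77 ± 0.46 (adjusted p = 3.76e-06).

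Wbscr25, a transcript antisense to the claudin gene Cldn3, had 11560 and 12291 in WT, 10547 and 10800 in 10xPerf, and 32.5 and 14.98 in 10xBulge, a difference of -8.85. AI507597, antisense to Tmem82, had 13186 and 11132 in WT, 9828 and 11103 in 10xPerf, and 58.5 and 34.7 in 10xBulge, a difference of -7.82. Both kept a trace of signal well above 3 reads in both 10xBulge libraries. 4930471G03Rik, antisense to the neuregulin gene Nrg2, had 3882 and 3644 in WT, 3589 and 3224 in 10xPerf, and 16.5 and 9.34 in 10xBulge. 4930414N06Rik had 1726 and 2007, 1288 and 1047, and 4.30 and 5.51, and 4933407I05Rik had 1822 and 1792, 1632 and 1338, and 9.03 and 9.32. In each of these the WT and 10xPerf libraries lay within a factor of 2 of each other, and both 10xBulge libraries were more than 100-fold below.

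For 3 members the 10xBulge libraries held no more than 3 reads in all, so the size of the fitted difference depends on the pseudocount of 1. 1700029B22Rik had 1969 and 1811 in WT, 1278 and 2154 in 10xPerf, and 1.13 and 0.91 in 10xBulge, about 2 reads, or 0.0547% of 10xPerf (exact 95% Poisson interval 0.00662% to 0.198%, counting error only). 1700034G24Rik had 1374 and 1046, 966 and 1037, and 0.94 and 0, about 1 read, or 0.0469% of 10xPerf (0.00119% to 0.261%). 4930512J16Rik, not among the 10, had 2 reads, or 0.133% (0.0162% to 0.482%). In all, 2 members were at 0 in N6 and none in another library, and 4 in N5 and 9 in N6 were under 3 reads. Those under 3 reads in N6 include Itpr3os and 1700027A15Rik, so the size of their differences also depends on the pseudocount.

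**Figure D3:**
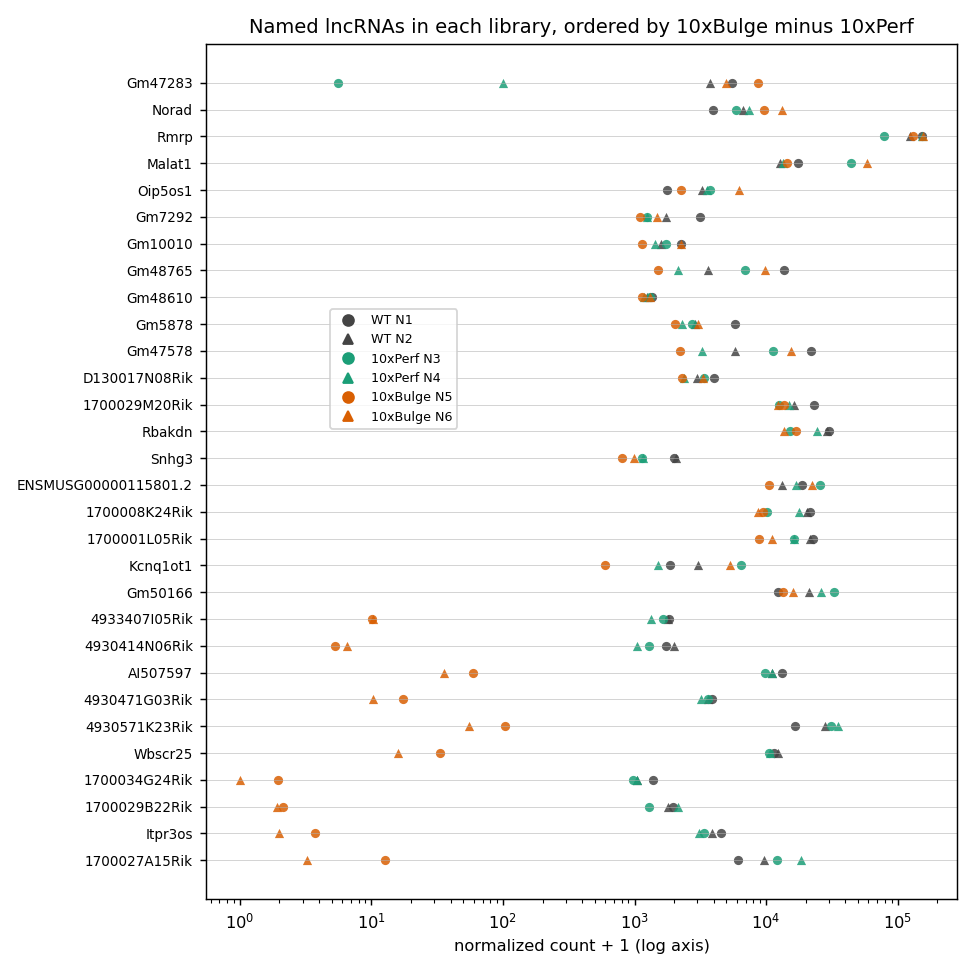
Normalized count plus 1 (log axis) of the named lncRNAs in each library, ordered by the fitted difference of 10xBulge minus 10xPerf. Grey, green and orange mark WT, 10xPerf and 10xBulge, circles the first and triangles the second library. The 10 lower members have both 10xBulge libraries at 103 or less while their other libraries are at 966 or more, and Gm47283 is low in the green libraries.

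Others among the members under 1/10 of WT include Gm5893 (7154 and 6703 in 10xPerf, 11.8 and 1.32 in 10xBulge) and 1700009J07Rik (4611 and 4733, 8.20 and 0.97). Haglr, a lncRNA of the Hoxd cluster, had 1308 and 1177 in WT, 676 and 1305 in 10xPerf, and 29.7 and 30.1 in 10xBulge, a difference of -4.93 ± 0.44 (adjusted p = 3.81e-05). Its neighbour Hoxd3os1, on the same strand 45174 bases away, had 4391 and 4003, 3858 and 3464, and 2515 and 1770, with a difference of -0.79 that did not pass the threshold (adjusted p = 0.156). Members close to each other thus did not always move together. Only members next to each other along a chromosome were paired, by their leftmost annotated bases. Of 12 such pairs within 100 kb, both members were lower in 2, 1 of them in 5 and neither in 5. As 51% of all members were lower, nothing particular to close pairs is read from these counts. A pair with 1 lower member can still differ alike, as did Gm6567 (-0.97) and 4933435G04Rik (-1.23). On chromosome 17, Gm10505 (0.42), Gm49794 (0.36) and Gm49796 (-6.59) lie in a row on the same strand. Gm49794 had 10640 and 10666 in 10xPerf and 13416 and 13935 in 10xBulge, while Gm49796 had 1158 and 1408 against 11.9 and 12.6.

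Of the 5 members on X and Y, 3 were lower and 1 was higher in 10xBulge than in 10xPerf. On X, Gm15104 was lower (3066 and 2661 in 10xPerf, 45.8 and 28.7 in 10xBulge), as was 1700010D01Rik (2719 and 2676, 61.9 and 30.95), while Gm28268 did not pass the threshold (-0.69, adjusted p = 0.621). On Y, Gm29277 was lower (3282 and 2795, 40.8 and 26.1), and all its 31-base words are shared with another gene, so its reads may be divided. Shared sequence limits other members too. 105 of the 200 shared no 31-base word with another gene, 157 shared under 10% and 23 over 50%. 4921528I07Rik and Gm29825, which share 65.1% of the words of the latter, had 3032 and 569, and 2868 and 418, in N3 and N4, and between 17.1 and 33.8 in N5 and N6.

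Of the 8 most abundant members, 4930571K23Rik alone was lower in 10xBulge than in 10xPerf past the threshold. Rmrp, the most abundant, had 154597 and 124255 normalized counts in WT, 79005 and 153816 in 10xPerf, and 129953 and 156737 in 10xBulge, so the lines overlapped (difference 0.37 ± 0.51, adjusted p = 0.629). Of its 31-base words, 96.02% are shared with a second entry named Rmrp, a ribozyme that the table lists at 0 in all 6 libraries. Rbakdn had 30302 and 29060, 15149 and 24233, and 16822 and 13669 (-0.34, adjusted p = 0.595). 1700001L05Rik had 22570 and 21406, 16239 and 16411, and 8812 and 11077. It was lower in both 10xBulge libraries than in both 10xPerf libraries, yet its difference of -0.72 ± 0.39 did not pass the threshold (adjusted p = 0.199). 1700008K24Rik had 21719 and 20492, 10091 and 17739, and 9462 and 8737 (-0.56, adjusted p = 0.365), also with no overlap between the lines. Both were between 1/10 and 1/2 of WT in 10xBulge, with log2 differences to WT of -1.15 and -1.21. This is a description only, since the members were chosen for high WT values. 1700029M20Rik had 23020 and 16167, 12479 and 14899, and 13641 and 12381 (-0.07, adjusted p = 0.92). Gm50166 (-0.999, adjusted p = 0.124) and ENSMUSG00000115801.2 (-0.43, adjusted p = 0.552) complete the group.

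Per length, the order of the most abundant members differs. In WT means per kb of transcript, Rmrp had 496177, Rbakdn 50478, 1700008K24Rik 25125, 4930571K23Rik 10302, 1700029M20Rik 6613 and 1700001L05Rik 4425. ENSMUSG00000115801.2, a model of 93147 bases, had 171 per kb.

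The member with the smallest difference whose 6 libraries also lay close together was Gm48610, with 1367 and 1239 in WT, 1316 and 1171 in 10xPerf, and 1138 and 1319 in 10xBulge. The difference was -0.02, with a 95% interval of -0.86 to 0.82. Gm10010 had 2242 and 1600, 1748 and 1435, and 1137 and 2245, and its interval was -1.002 to 1.03. D130017N08Rik had 3986 and 2989, 3364 and 2390, and 2276 and 3312, with an interval of -0.98 to 0.89. The intervals allow a change of nearly 2-fold either way, so these genes are not shown to be equal. Gm5878 differed by -0.02 and Gm7292 by 0.03. Of the 31-base words of Gm7292, 85.9% are shared with Norad, yet the 2 genes did not follow each other, since Gm7292 had 3131 and 1720 in WT against 1097 and 1469 in 10xBulge.

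Named lncRNAs of nuclear and housekeeping roles have 4 members among the 200. Malat1 had 17597 and 12780 in WT, 44063 and 13537 in 10xPerf, and 14422 and 58340 in 10xBulge. It was high in 1 library of each knock-in line, and its difference of 0.25 had an interval of -1.42 to 1.92 (adjusted p = 0.836). Norad had 3925 and 6636 in WT, 5902 and 7370 in 10xPerf, and 9584 and 13211 in 10xBulge. Norad was highest in both 10xBulge libraries, with a difference of 0.77 ± 0.43 against 10xPerf (adjusted p = 0.215). Oip5os1, known as Cyrano, had 1780 and 3275, 3732 and 3547, and 2273 and 6217 (0.05, adjusted p = 0.958). Of the list of 24 such lncRNAs that could be tested, 4 were lower and 0 higher in 10xBulge than in 10xPerf in limma (4 and 1 at an unadjusted p under 0.05), beside 24.1% lower over all genes and 44.8% over the other lncRNA genes. The 4 include Pvt1, with 852 and 907 in 10xPerf and 139 and 137 in 10xBulge, which is not a member.

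Snhg3, a host gene of small nucleolar RNAs, had 1998 and 2076 in WT, 1147 and 1153 in 10xPerf, and 804 and 984 in 10xBulge (-0.37, adjusted p = 0.493). Of 21 host genes tested, 2 were lower and 2 higher in 10xBulge than in 10xPerf (2 and 3 at an unadjusted p under 0.05). Over all genes tested, 24.1% were lower and 12.9% higher. Kcnq1ot1, which silences its imprinted domain on the paternal allele, had 1866 and 3054, 6422 and 1498, and 594 and 5282, so that N5 and N6 were further apart than the genotypes (-0.81, adjusted p = 0.575). Of 10 imprinted lncRNAs tested, 0 were lower, also at an unadjusted p under 0.05, and 1 was higher, namely Rian. Neither of the 2 genes that could be tested from a list of testis lncRNAs passed the threshold, also at an unadjusted p under 0.05. Of 19 protein partners of these RNAs, such as the paraspeckle protein genes Nono and Sfpq and the Pumilio genes, 2 were lower and 0 higher, also at an unadjusted p under 0.05, beside 18.1% lower over all coding genes. The 2 were named after their values were seen. Zcchc8 had 3969 and 3953 in 10xPerf and 1258 and 993 in 10xBulge (-1.82, adjusted p = 0.0076), and the helicase gene Mtrex had 5722 and 5927 against 2400 and 2759 (-1.18, adjusted p = 0.0862).

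In 10xPerf against WT, as a description, since the members were chosen for high WT values, 1 member was lower and 0 were higher in limma, with 0.492% of all genes tested lower and 0.467% higher. At an unadjusted p under 0.05, 11 were lower and 2 higher. The median difference was -0.27 and 150 of 200 were negative. For the 200 highest by N1 alone, the median of 10xPerf was -0.46 against N1 and -0.11 against N2. For the 200 highest by N2 alone it was -0.33 against N1 and -0.13 against N2, so that under both choices it was further below N1. For 10xBulge the values were -1.73 and -1.38, and -1.69 and -1.40.

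The member that was lower in 10xPerf was Gm47283 on the Y chromosome (chrY:90784738-90816464, 5 exons). GENCODE vM21 lists it as a coding gene, while the deposited annotation lists it as a lncRNA. Gm47283 had 5532 and 3753 in WT, 4.55 and 99.4 in 10xPerf, and 8690 and 4993 in 10xBulge. It was also the only member higher in 10xBulge than in 10xPerf (8.12 ± 1.07, adjusted p = 0.000399). The difference to WT was -7.59 ± 1.07 (adjusted p = 0.0163), a call that was lost without N1 and without N2, when 0 members were lower. The difference of 10xBulge to WT was 0.53 (adjusted p = 0.754). Of its 31-base words, 65.1% are shared with the gene that the table lists as Erdr1, a pseudoautosomal gene. Erdr1 followed the same order at a lower level, with 74.9 and 21.4 in WT, 1.69 and 1.31 in 10xPerf, and 58.7 and 38.2 in 10xBulge. The reads of these 2 genes may be divided between them, and values of either gene alone are uncertain.

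Below 1/2 of WT in 10xPerf were 11 more members. 1700016K05Rik had 1162 and 1398 in WT, 393 and 440 in 10xPerf, and 100 and 59.0 in 10xBulge, a stepwise order with no overlap. It was lower in 10xBulge than in 10xPerf (-2.42 ± 0.43, adjusted p = 0.0025), while 10xPerf against WT did not pass the threshold (-1.61, adjusted p = 0.26). 1700097N02Rik, at a bidirectional promoter, had 1898 and 1683 in WT, 669 and 684 in 10xPerf, and 763 and 664 in 10xBulge, so that both lines were below both WT libraries. C030037D09Rik and 4933435G04Rik were above 2-fold of WT in 10xPerf without passing the threshold. C030037D09Rik had 1644 and 1189 in WT, 4042 and 3840 in 10xPerf, and 85.8 and 65.0 in 10xBulge. 4933435G04Rik had 1026 and 1865, 4056 and 3397, and 1577 and 1598. Both were lower in 10xBulge than in 10xPerf, with log2 differences of -5.70 and -1.23 (adjusted p = 9.8e-06 and 0.0568), although 4933435G04Rik was between its WT values in 10xBulge. The call of 4933435G04Rik was lost with library totals and without N3, N4 or N5 (adjusted p up to 0.291), whereas that of C030037D09Rik was kept in each of the 15 alternatives for which calls of single members were compared.

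Against WT, 10xBulge had 122 members lower and 1 higher in limma, where 23% of all genes tested were lower and 11.4% higher, and the median difference was -1.53. As the rule used the WT values, nothing is read from this count. The higher member was Norad (1.14 ± 0.43, adjusted p = 0.0837). Lower against WT but not against 10xPerf was, for example, Snhg3 (-1.19, adjusted p = 0.0429).

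On the opposite strand, 91 of the 200 overlap a coding gene and another 13 have one that starts within 2 kb, and 103 of these genes could be tested. Where a member overlaps several, the gene with the nearest start was taken. Starts of overlapping pairs can lie far apart, for example 485406 bases for 4930589P08Rik and Camta1. Of the neighbours of 68 members lower in 10xBulge than in 10xPerf, 14 were lower as well (20.6%), 9 were higher and 45 did not pass the threshold. For the 35 other members, 6 neighbours were lower (17.1%), 3 were higher and 26 did not pass. Across the 103 pairs, as a description, Spearman's rho was 0.12 and Pearson's r 0.32, all values being from the same libraries. These shares stand beside 18.1% lower and 16.2% higher over all 17550 coding genes tested, and nothing particular to the neighbours is read from them. On the same strand, 11 of the 200 overlap a coding gene, among them Snhg3 (Rcc1) and Gm48765 (Lyrm4). Where the exons of these overlap, strand does not separate their reads.

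The pair lost together at the highest level was 1700027A15Rik and Tnp1, which replaces histones before the protamines. Tnp1 had 16590 and 24653 in WT, 29823 and 33857 in 10xPerf, and 26.4 and 15.5 in 10xBulge (-10.55). Where the exons of such pairs overlap, reads can be assigned only by strand. Saxo1os (-7.79) and Saxo1, a gene for a sperm tail microtubule protein (-6.28), start 118 bases apart, and Saxo1 had 3174 and 2318 in 10xPerf and 41.8 and 27.6 in 10xBulge. Lyzl4os (-5.29) and the lysozyme-like gene Lyzl4 (-4.58) form another such pair, as do 4930442L01Rik (-5.91) and the scaffold protein gene Pdzk1 (-7.05), and 1700095B10Rik (-5.67) and the myosin gene Myo18b (-6.28). In contrast, Itpr3 had 1496 and 697 in 10xPerf and 2372 and 816 in 10xBulge (0.45, adjusted p = 0.621), opposite Itpr3os at -10.20. Fgfr2, a fibroblast growth factor receptor gene, was higher in 10xBulge (217 and 268 against 1343 and 593, 1.88, adjusted p = 0.018), opposite 1700029B22Rik at -9.69. The annotated starts of Fgfr2 and 1700029B22Rik lie 1976911 bases apart, although the 2 genes overlap, and those of Itpr3 and Itpr3os 44136 bases apart. Cldn3 differed by 0.06 opposite Wbscr25 at -8.85. Pax5 was the reverse case, since Pax5 differed by -6.85 (1796 and 433 against 11.6 and 3.66) and its antisense member Gm12462 by -1.16.

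**Figure D4:**
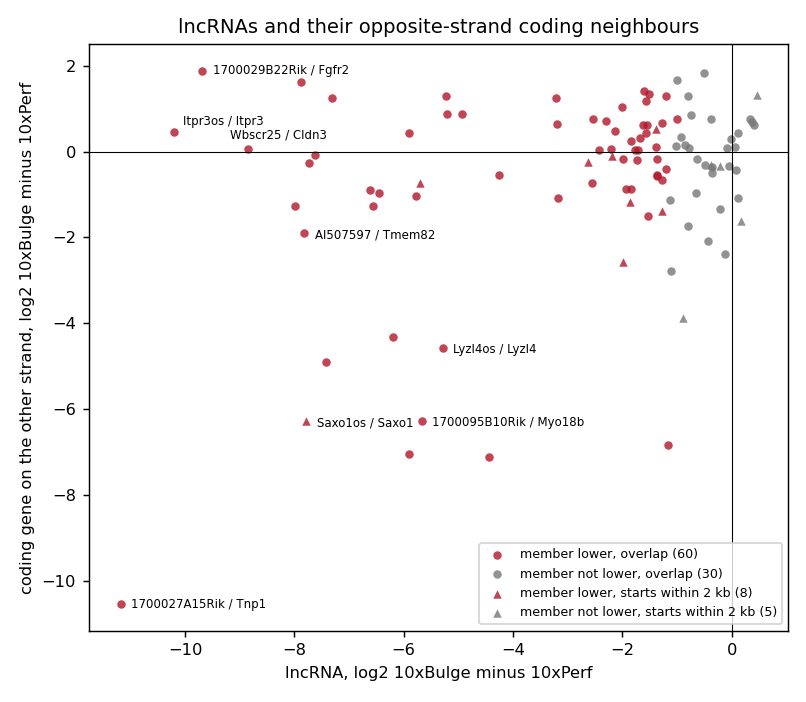
Log2 difference of 10xBulge minus 10xPerf of each lncRNA (x axis) and of the coding gene on the other strand (y axis) for 103 pairs. Red marks members that were lower, circles overlapping pairs and triangles pairs with starts within 2 kb. Of the 27 lower members below -4 on the x axis, 19 have a neighbour between -2 and 2 and 8 one below -4, and 1700027A15Rik and Tnp1 lie at -11.18 and -10.55.

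Some members differed more within than between genotypes. Over the members, 10 were over 2-fold apart between N1 and N2, 19 between N3 and N4 and 51 between N5 and N6. The median absolute log2 difference was 0.31, 0.24 and 0.65 in the same order. The Pearson correlation of log2 levels was 0.90, 0.87 and 0.96, although N5 and N6 were furthest apart by the other measures. Gm47578 had 22003 and 5761 in WT, 11301 and 3261 in 10xPerf, and 2235 and 15506 in 10xBulge, so N1, N3 and N6 were high and N2, N4 and N5 low. Gm48765, on another chromosome, had 13697 and 3628, 6932 and 2157, and 1498 and 9792. The ratio of Gm47578 to Gm48765 was between 1.49 and 1.63 in all 6 libraries. Of their 31-base words, 90.4% and 94.0% are shared with 375 and 185 other genes. The next most similar pattern to Gm47578 among 10437 genes with over 200 in every library was that of Vmn2r53, by the root mean square distance of centred log2 values over the 6 libraries. For Malat1 it was that of Gm47015, and Neat1, which forms paraspeckles, came next with 1090 and 756 in WT, 1681 and 730 in 10xPerf, and 788 and 3081 in 10xBulge.

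**Figure D5:**
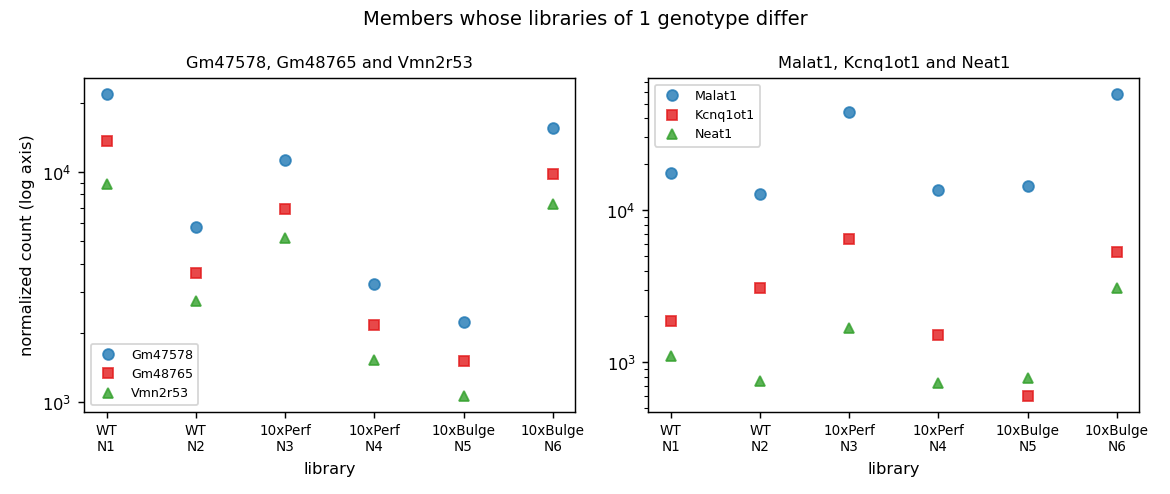
Normalized counts (log axis) in each library of Gm47578, Gm48765 and Vmn2r53 (left) and of Malat1, Kcnq1ot1 and Neat1 (right). In the left panel N1, N3 and N6 are high for all 3 genes, and in the right panel N3 and N6 are high, with Malat1 at 44063 and 58340.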

How the data were processed

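Total RNA (500 ng) from adult whole testes was depleted of ribosomal RNA, prepared with a stranded Illumina kit (Ribo-Zero Plus) and sequenced as single-end reads on a NovaSeq. The authors assigned reads to transcripts of GRCm39 (Ensembl release 104) with salmon (options --validateMappings and --gcBias) and used DESeq2 to scale them. The deposited normalized counts are a signal per gene and library, not whole reads. The authors also deposited log2 fold changes of their own comparisons with adjusted p-values, which were not used. MILI and MIWI immunoprecipitation libraries were not analysed here.

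For the 23782 genes that reached 10 in 2 or more libraries, log2(value + 1) was fitted by limma 3.58.1 (R 4.3.3) over all 6 libraries, with genotype as the only term, a mean-variance trend and Benjamini-Hochberg adjustment over all genes. Such differences understate the change of low genes. Because the values are normalized, no count test was run. The procedure was also run on simulated data, drawn without GC or library effects, and nothing here is read from that run. The members and lists were chosen with earlier results of these data known. Named are the 8 most abundant members, the 10 lower and up to 10 higher members with the smallest p and no overlap in 10xBulge against 10xPerf, the 8 with the smallest difference, members of lncRNA lists, members past the threshold in 10xPerf against WT and the 2 genes on either side of the limit of 200. Other members named were chosen after their values were seen. RIKEN clones with 1 of 7 prefixes were taken as testis clones. Depth was estimated as the sum of a library divided by its most frequent value under 3, taken as the worth of 1 read.

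Strand, exons, length and GC content are from GENCODE vM21 (GRCm38), matched by gene identifier. Words of 31 bases were counted over its transcripts. Promoters are from RefSeq (GRCm38.p6). Other steps ran in Python 3.11.15, with scipy 1.17.1 for rank correlations and exact intervals and matplotlib 3.10.9 for plots. Alternatives were other scalings, filters, pseudocounts, thresholds, numbers of members and fits, leaving out each library, and, chosen after seeing the data, removal of each library's GC trend (loess, span 0.3) and leaving out members with over 50% shared words.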

Additional observations from a re-analysis of the deposited data

How the results depend on the processing

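With 2 mice per genotype and whole testis, small changes are missed, and members near 3 reads in 10xBulge have differences set by the pseudocount. Calls of single members were compared over 15 alternatives. Of the 102 members lower in 10xBulge than in 10xPerf, 74 kept that call in each of these that tested them, as did Gm47283, the higher one. The 15 leave out the stricter thresholds, with which 94 (adjusted p under 0.05) and 100 (fold change of at least 2) members were lower. Some members not past the threshold did pass it in an alternative limma fit. With the GC trend removed, Norad was higher (adjusted p = 0.0499) and Rbakdn lower (0.0775). With the upper quartile, Hoxd3os1 was lower (adjusted p = 0.075). The number lower was 40 among the highest 100, and between 78 and 152 in all other alternatives, the latter among the highest 300. The number higher, 1, was 2 with library totals, by N2 alone and with the GC trend removed, 4 among the highest 300, and 0 with a filter of 10 in every library or without members of over 50% shared words, which leave out Gm47283. The median of -1.14 was -0.89 with library totals, which moved the median of all genes to 0.18, and -1.25 with the upper quartile, which moved it to -0.18. It was -0.93 with 10 in every library, -0.87 among the highest 100, -1.28 with the GC trend removed and -1.27 without shared members, and between -1.46 (without N5) and -1.14 leaving out a library. A lone library left in a genotype was assumed to vary like the others. Leaving out a 10xPerf library gave 78 (N3) or 81 (N4) lower members.

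Against WT, 122 lower members in 10xBulge were 54 among the highest 100. The number higher, 1, was 2 with library totals, 3 by N2 alone, 4 among the highest 300, and 0 with the upper quartile, a filter of 1 in 1 library, an adjusted p under 0.05, no mean-variance trend or only 2 genotypes in the fit. It was 0 to 3 leaving out a library, 3 without N5 and 0 without N1, N3 or N4, so the call of Norad rests on the setting. The median of -1.53 was -1.14 with library totals, -1.67 with the upper quartile, -1.32 with 10 in every library, -1.25 among the highest 100 and -1.62 without shared members, and -1.77 to -1.40 leaving out a library. In 10xPerf the number lower, 1, was 0 with 10 in every library or without shared members, 3 among the highest 300 and 2 with only 2 genotypes in the fit. It was 0 without N1 or N2, which ends the call of Gm47283, and 2 without N6. The median of -0.27 was -0.13 with library totals and -0.43 (without N2) to -0.11 (without N1) leaving out a library. The causes were not tested. No paired analysis was possible because the genotypes share no library number. A count test was not run on normalized values.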

Other observations

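The log2 ratio of the libraries of a genotype moved with GC content over the 200 lncRNAs. As a description, with GC content from the annotated transcript and all points from the same libraries, Spearman's rho was 0.29 for N1 over N2, -0.43 for N3 over N4 and 0.52 for N5 over N6. N5 over N6 ranged from -3.15 for Kcnq1ot1 to 2.46 for Gm5893, and N1 over N2 reached 1.93 for Gm47578. The widest range was that of N3 over N4, from -4.18 for Gm47283 to 2.77 for Gm29825. Among genes at 200 or more in every library, those with the pattern most like that of Gm47578 were the lncRNAs Gm48765, Gm31392 and Gm49534 and, listed as coding, Vmn2r53, Vmn2r114 and Olfr839-ps1. Olfr839-ps1 had 3698 and 1103 normalized counts in WT, 2253 and 646 in 10xPerf, and 484 and 2783 in 10xBulge. The cause of the shared order of libraries was not tested.

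The pair 4930442J19Rik and Gm14144, whose leftmost annotated bases lie 37371 bases apart on opposite strands of chromosome 2, share 88.1% of their 31-base words with each other. Neither passed the threshold in 10xBulge against 10xPerf (0.42 and 0.61), and Gm14144 had 848 and 1016 in 10xPerf against 1139 and 1769 in 10xBulge.

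Pvt1, which was no member, had 228 and 255 in WT, 852 and 907 in 10xPerf, and 139 and 137 in 10xBulge, and in limma it was higher in 10xPerf than in WT (1.86, adjusted p = 0.0985). Miat had 24.8 and 7.99, 199.1 and 118, and 9.33 and 4.19.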
